A study of Mus musculus with 2 samples.

Results

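Replication-dependent histone genes were examined in PDGFRα+ cells of mouse inguinal fat, on 1 microarray of cells from floxed mice and 1 of cells from Sox9 PreASKO mice. The members were chosen by symbol, as every gene whose name begins with H1f, H2ac, H2bc, H3c or H4c and a number, or with the older Hist1h to Hist4h, and that had a probe set naming no other gene. This gave 30 genes of the 19938 with such a probe set, namely 8 of type H1, 4 of H2A, 9 of H2B, 3 of H3 and 6 of H4. The older cluster names stood in no symbol of the platform annotation.

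Histones are the proteins around which DNA is wound. H2A, H2B, H3 and H4 form the core of the nucleosome, and H1 binds the linker DNA between nucleosomes. The replication-dependent genes sit in clusters of near-identical intronless copies, are transcribed mainly in S phase while DNA is copied, and give mRNAs that end in a stem-loop in place of a poly(A) tail. The stem-loop binding protein SLBP processes and protects these mRNAs, and they are degraded when replication stops. Their level is therefore widely used as a sign of cells in S phase.

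The cells were sorted with a PDGFRα antibody from the stromal vascular fraction, the non-adipocyte cells that collagenase releases from fat. Both groups were female mice aged 6 weeks that received doxycycline at postnatal day 1, one carrying floxed Sox9 and the other labelled Sox9 PreASKO. The design text speaks of 3 pooled animals. What drives the deletion is not given in the sources used here. All levels are RMA values on the log2 scale and all differences are PreASKO minus floxed, so that 0.585 stands for 1.5-fold, the limit named in the design text. With 1 array a group there is no replicate check, no error and no p-value for any difference. The labels name the molecule as polyA RNA and the extraction as total RNA. How the RNA was primed for labelling is not given in the sources used here, so how far mRNAs without a poly(A) tail were captured was not tested.

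Sox9, the deleted gene, was at 5.25 in floxed and 4.97 in PreASKO, a difference of -0.27 that is short of 1.5-fold. The position of its probes relative to the deleted part was not examined. Of 9 markers of the sorted cells 8 were measured, all above background on both arrays, and Pdgfra was at 9.86 and 9.55. In PreASKO 6 of the 8 were lower and 2 higher, none by 1.5-fold, with a median of -0.05. As a mark of background the 95th percentile of 1027 olfactory receptor genes was used, 4.64, the higher of the values of the arrays.

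Of the 66 histone genes that the annotation names, 30 had a probe set of their own and 36 were named only on probe sets shared with other histone genes. The shared probe sets numbered 26 and named from 2 to 20 genes each. Of the 30 members, 18 were also named on a shared probe set and 17 had a transcript accession listed on one, so signal can be shared between copies. Each member had 1 probe set of its own. All 30 matched a RefSeq gene by identifier and symbol, 23 of them on chromosome 13 and 4 on chromosome 3. Not every symbol of the rule is a replication-dependent gene. H1f7, H1f8 and H1f10 are linker histone genes, of male germ cells, of oocytes and of a variant not tied to replication, and H1f6, H2ac1 and H2bc1 encode germ cell histones.

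The control of the family lies partly in short promoter elements, so promoters were taken for the H1 genes above background in the large cluster, for the other members past 1.5-fold, and for an H2B and an H4 gene within the limit. Each line gives the 130 bases before the annotated start, from RefSeq on GRCm38.p6, read 5′ to 3′ along the gene. Capitals mark matches, on either strand, to 5 motifs. The TATA box was searched as TATAAA. The site bound by the factor NF-Y was searched as CCAAT. The octamer, bound by POU factors, was searched as ATTTGCAT. The H1 box, known from linker histone genes, was searched as AAACACA. The last is the stretch GGTCCG of H4 genes.
H1f1 (chr13:23763538-23763667, forward strand): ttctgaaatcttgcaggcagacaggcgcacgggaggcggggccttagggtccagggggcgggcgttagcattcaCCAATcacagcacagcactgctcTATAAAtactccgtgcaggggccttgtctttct
H1f2 (chr13:23738677-23738806, forward strand): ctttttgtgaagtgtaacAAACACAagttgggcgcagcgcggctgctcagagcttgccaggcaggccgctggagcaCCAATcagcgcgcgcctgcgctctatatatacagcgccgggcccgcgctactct
H1f5 (chr13:21780626-21780755, reverse strand): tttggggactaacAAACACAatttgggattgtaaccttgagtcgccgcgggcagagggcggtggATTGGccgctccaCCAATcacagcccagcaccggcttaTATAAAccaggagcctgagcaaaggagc
H2ac4 (chr13:23750958-23751087, forward strand): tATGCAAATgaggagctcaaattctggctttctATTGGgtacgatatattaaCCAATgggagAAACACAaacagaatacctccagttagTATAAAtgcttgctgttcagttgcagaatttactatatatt
H2bc14 (chr13:21721914-21722043, forward strand): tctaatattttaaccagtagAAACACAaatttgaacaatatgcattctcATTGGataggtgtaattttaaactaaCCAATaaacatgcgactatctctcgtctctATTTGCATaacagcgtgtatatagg
H4c6 (chr13:23551669-23551798, reverse strand): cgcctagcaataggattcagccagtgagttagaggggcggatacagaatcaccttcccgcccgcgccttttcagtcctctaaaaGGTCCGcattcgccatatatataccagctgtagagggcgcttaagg
H4c4 (chr13:23581438-23581567, forward strand): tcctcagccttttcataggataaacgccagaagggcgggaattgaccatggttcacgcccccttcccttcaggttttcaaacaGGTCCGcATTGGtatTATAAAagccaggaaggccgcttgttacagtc

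Promoters were held for 26 of the 30 members, and the 250 bases before the start were searched on both strands, where matches of different motifs could overlap. A CCAAT match lay in 20 of 26 members (76.9%), against 33.8% of 32851 promoters. The octamer, known from H2B genes, lay in 5 of 7 H2B and 3 of 4 H2A members and in none of the H1, H3 and H4 members, against 1.60% of all promoters. The H1 box lay in 4 of 8 H1 members, at 112 bases before the start in H1f2 and 117 in H1f5, against 6.25% of all promoters. It also lay in 2 of 4 H2A and 2 of 7 H2B members and in no H3 or H4 member, and so was not particular to H1 here. H1f1 held a CCAAT match at 56 bases and a TATA match at 33 bases, and no exact H1 box. GGTCCG, chosen after the H4 sequences had been seen, lay in 4 of 5 H4 members, at 46 bases in H4c3, H4c6 and H4c9 and at 47 in H4c4. It also lay in 1 H1 and 1 H2B member, and in 6.72% of all promoters. TATAAA lay in 14 of 26 members (53.8%), against 12.4%. The searched stretches of the neighbours H2ac1 and H2bc1 overlapped, as did those of H2ac8 and H2bc8. Octamer, CCAAT and TATAAA matches of both pairs, and the H1 box of H2ac1 and H2bc1, were the same sites counted in both genes. The counts for H2A and H2B are therefore not counts of separate promoters. H4c6 and H4c4 both held the GGTCCG stretch, and their differences were -0.68, with the PreASKO value below background, and 0.13. H4c4 also held a TATA match at 32 bases and a CCAAT match at 40 that H4c6 lacked there. A link between these matches and the differences was not tested. These are matches of letters, not measured binding.

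Histone genes were more often lower than higher in PreASKO. Of the 30 members 21 were lower and 9 higher, that is 70.0% lower. Of all genes 48.0% were lower and 48.2% higher. The median difference was -0.15, with 0 as the median of all genes. By at least 1.5-fold 3 members were lower, H2ac4, H1f5 and H4c6, where 1.98% of all genes were that much lower. None was 1.5-fold higher, where 1.66% of all genes were, and none was 2-fold lower, where 0.145% were. In bulk RNA, fewer cells of a type and less RNA per cell cannot be told apart.

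Part of these counts rests on dim probe sets, which leaned toward lower values in PreASKO. Of the 1027 olfactory receptor genes 5.84% were 1.5-fold lower and 1.17% 1.5-fold higher, and their 95th percentile was 4.64 in floxed and 4.47 in PreASKO. H2ac4 and H4c6 lay below background in PreASKO. In 8 members both arrays lay below background. With every value below background raised to it, 1 member, H1f5, was 1.5-fold lower and the median was -0.07; the same limit then held 0.517% of all genes. Over the 16 members at 5.18 or above on at least 1 array (the level floor, the median over all genes of the brighter array's value), 12 were lower and the median was -0.22. All genes above that floor had a median of 0.02, with 44.4% lower and 1.07% lower by 1.5-fold. Among the 4985 genes with the highest mean level, 6 of 7 histone members were lower, 1 of them by 1.5-fold, against 43.9% and 0.381% of these genes.

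**Figure D1:**
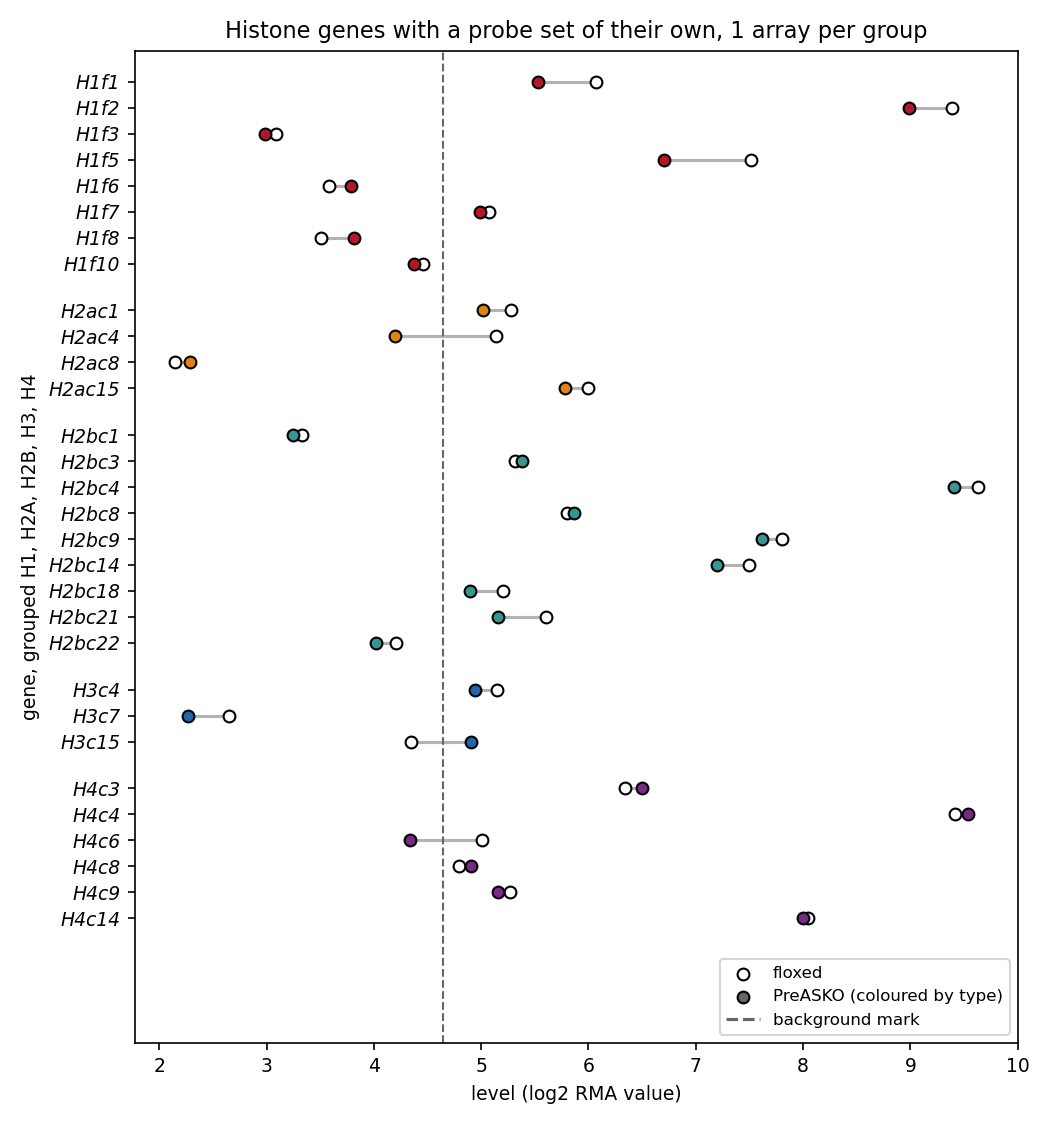
Level of each of the 30 histone genes (log2 RMA value, x axis) in the floxed array (open) and the PreASKO array (filled, coloured by histone type), with the background mark of 4.64 as a dashed line. H1f5 runs from 7.51 to 6.70, well to the right of the mark, while H2ac4 and H4c6 cross it.

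Among members above background on both arrays, the linker histone genes H1f5 and H1f1 had the most negative differences. H1f5, the gene of a somatic H1 subtype, was at 7.51 in floxed and 6.70 in PreASKO. It was 1.75-fold lower (-0.81), and 103 of the 19938 genes had a lower difference. H1f1, another somatic subtype, was at 6.07 and 5.53, 1.45-fold lower (-0.53) and so short of the limit. H1f2, a subtype that many cell types express, was at 9.39 and 8.98, a difference of -0.41. All 3 were lower, by different amounts.

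The other H1 members were dim. H1f3 was at 3.09 and 2.99, H1f6 at 3.58 and 3.79, H1f8 at 3.51 and 3.82 and H1f10 at 4.46 and 4.37, all below background on both arrays, so their order between arrays is not measured. H1f7 was at 5.07 and 4.99. The median over all 8 H1 members was -0.09, and -0.53 over the 3 above the level floor, since those dim genes no longer counted. H1f4, like H1f3 a somatic subtype of the cluster, was named only on a probe set shared with H2bc6, at 5.68 and 5.55.

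Among H2A members H2ac4 had the most negative difference of the family. H2ac4 was at 5.14 in floxed and 4.20 in PreASKO, a difference of -0.94, with 46 genes of all 19938 lower still. The PreASKO value lay below background. With that value raised to background H2ac4 was 1.41-fold lower, an amount that depends on the mark used. H2ac15 was at 6.00 and 5.78 (-0.22), and H2ac1, the germ cell H2A, at 5.28 and 5.02 (-0.26). H2ac8 lay below background on both arrays, at 2.15 and 2.29. So 3 of 4 H2A genes were lower, 1 of them past the limit.

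H2B genes were lower by small amounts. Of 9 members 7 were lower and 2 higher, none by 1.5-fold, with a median of -0.19. H2bc4 was at 9.63 and 9.40 (-0.22), H2bc9 at 7.81 and 7.62 (-0.19) and H2bc14 at 7.49 and 7.20 (-0.29). The floxed array was the higher in each of these genes. In the smaller cluster on chromosome 3, H2bc21 was at 5.60 and 5.16 (-0.45) and H2bc18 at 5.20 and 4.90 (-0.31), both dimmer than these. H2bc3, at 5.31 and 5.38, and H2bc8, at 5.80 and 5.86, were the higher ones, by 0.07 and 0.06. H2bc22, at 4.21 and 4.02, and the germ cell gene H2bc1, at 3.33 and 3.25, were below background on both arrays.

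H3 genes had few probe sets of their own. H3c4 was at 5.15 and 4.95 (-0.20). H3c15 was at 4.35 and 4.91, a difference of 0.56, the most positive of the family, with the floxed value below background. With that value raised to background H3c15 was 1.20-fold higher. With quantile normalization of the arrays, and no value raised, its difference was 0.60, past the 1.5-fold limit. H3c7, at 2.65 and 2.27, lay below background on both arrays.

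H4 genes stood near level. Their median was 0.03 over 6 members, 3 lower and 3 higher, all above background on at least 1 array. H4c4 was at 9.41 and 9.54 (0.13), H4c14 at 8.05 and 7.99 (-0.05) and H4c3 at 6.34 and 6.50 (0.17). H4c9 was at 5.26 and 5.15 (-0.11) and H4c8 at 4.79 and 4.90 (0.11). H4c6 was the exception, at 5.01 and 4.34, a difference of -0.68. Its PreASKO value lay below background, and with that value raised to background H4c6 was 1.29-fold lower.

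Genes that lie next to each other did not always differ alike. Among consecutive protein-coding genes in RefSeq, 10 pairs of members were neighbours. H2bc3 and H2ac4 differed by 0.07 and -0.94, H3c4 and H4c4 by -0.20 and 0.13, and H2bc21 and H3c15 by -0.45 and 0.56. H2ac8 and H2bc8 differed by 0.14 and 0.06, and H2bc9 and H3c7 by -0.19 and -0.38. The other pairs were H3c7 and H4c6 (-0.38 and -0.68), H4c6 and H1f3 (-0.68 and -0.10) and H2bc1 and H2ac1 (-0.08 and -0.26). Further pairs were H2bc4 and H1f6 (-0.22 and 0.21) and H1f6 and H4c3 (0.21 and 0.17). Only in the pair H3c4 and H4c4 were both genes above background on both arrays, so the other pairs rest partly on dim values. On chromosome 13 the median was -0.19 over 23 members and on chromosome 3 it was -0.18 over 4.

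The shared probe sets add the genes that no probe set reads alone. The 10 shared H3 sets each named the same 12 genes. All 10 were lower in PreASKO, with floxed levels from 7.58 to 8.18, PreASKO levels from 7.37 to 7.74 and differences from -0.45 to -0.21 (median -0.34). They read largely the same transcripts and are not 10 measurements. The 7 H2B sets, 2 of which held the same values, ran from -0.37 to -0.20 with a median of -0.24. The 2 H2A sets, which also name H2af-ps2, the variant gene H2ax and the H3 gene H3c4, stood at -0.19 and -0.09. The set at -0.09 names the variant gene H2aj as well.

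Shared H4 sets again stood close to level. Of 6 such sets, 5 named 11 genes, again with 2 alike, and lay between -0.08 and -0.01 at floxed levels from 9.23 to 9.93. The range of these 5 sets did not overlap that of the H3 sets, a description of 2 arrays with no test. Sets of a type name the same genes, so neither range is a spread of separate measurements. Among members with probe sets of their own the ranges overlapped, from -0.38 to 0.56 for H3 and from -0.68 to 0.17 for H4. The remaining H4 set, naming H4c17 and H4c11, was at 3.31 and 4.46, a difference of 1.15 with both arrays below background. The H4 set naming H4c17 and H4c11 was the one shared set that was higher. No shared set was 1.5-fold lower.

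**Figure D2:**
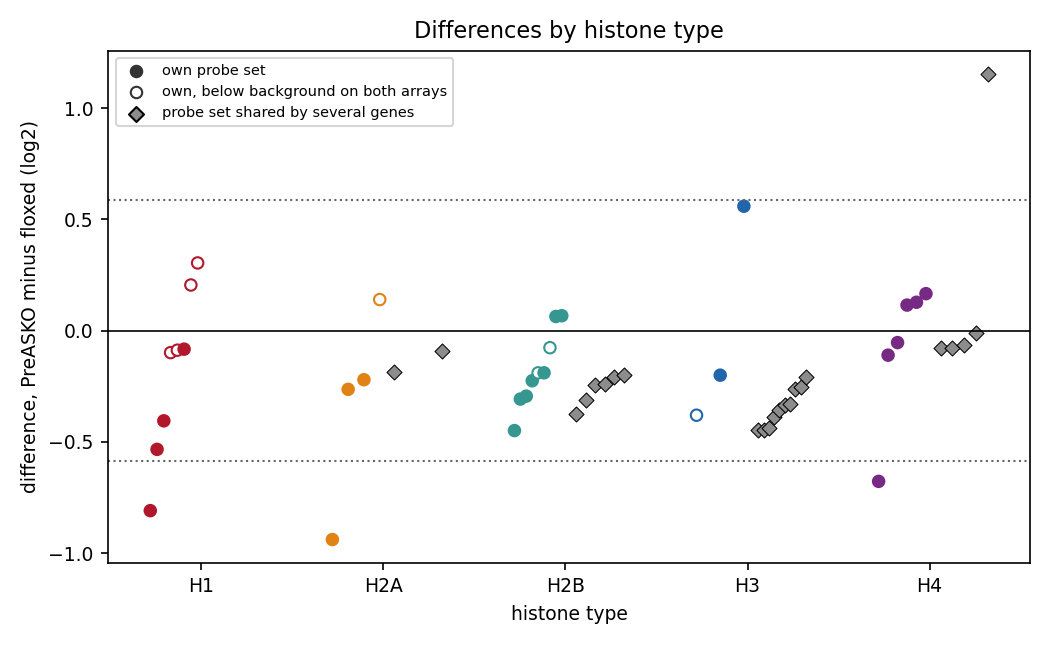
Difference PreASKO minus floxed (log2, y axis) by histone type; circles are genes with a probe set of their own (open where both arrays lay below background), diamonds are distinct shared probe sets, and dotted lines mark 1.5-fold. The shared H3 sets lie between -0.45 and -0.21 and the shared H4 sets between -0.08 and -0.01, apart from the 1 dim H4 set at 1.15; the set naming H2bc6 and H1f4 is not drawn.

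**Figure D3:**
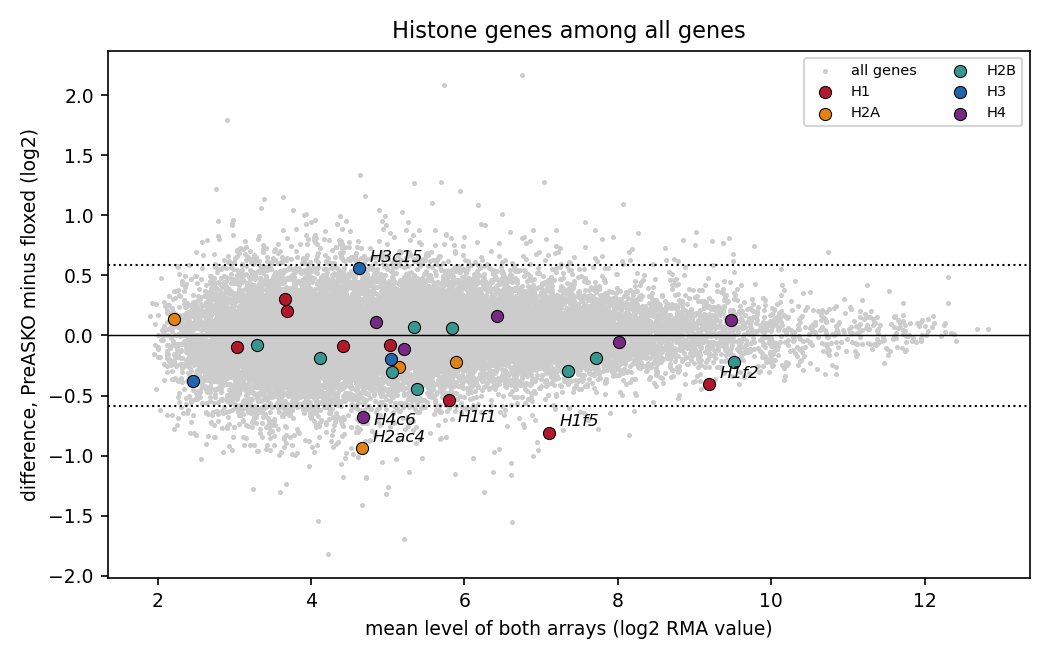
Difference PreASKO minus floxed (log2) against the mean level of both arrays (log2 RMA value) for all 19938 genes (grey) and the 30 histone genes (coloured by type), with dotted lines at 1.5-fold. H1f5 lies past the lower line at a level where few genes do, and H2ac4 and H4c6 lie past it where the grey cloud is wider.

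The listed histone variant genes were level. Of 13 such genes listed 9 were measured, 4 were lower and 4 higher, and none was 1.5-fold different, with a median of 0. Of all genes 1.98% were 1.5-fold lower and 1.66% 1.5-fold higher. H2az1, the H2A.Z variant of promoters, was at 10.36 on both arrays after rounding, and H2ax, the variant phosphorylated at DNA breaks, was at 6.65 and 6.68. H2aj differed by 0.09, Macroh2a1 and Macroh2a2 by 0.05 each and H2az2 by -0.06. Cenpa, the centromeric H3 variant, was at 5.96 and 5.81 (-0.16). H1f10 is on this list as well as among the 30 genes. H3f3a, just above background, held the same value on both arrays (4.78), and 758 of all genes held such a tie. Its difference of 0 is the median of the list.

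The genes that transcribe histone genes and process their mRNAs were mostly a little lower. Of 27 listed 26 were measured, 18 were lower and 7 higher, with a median of -0.14. None was 1.5-fold lower. Of all genes 48.0% were lower, 1.98% by 1.5-fold, and 1.66% were 1.5-fold higher. Hinfp, a transcription factor of H4 genes, was the exception: it was at 4.67 in floxed, just above background, and at 5.70 in PreASKO, 2.04-fold higher (1.03). Slbp, the stem-loop binding protein, was at 6.79 and 6.56 (-0.23). Npat, the coactivator of histone loci, was at 5.65 and 5.73 (0.08), and Casp8ap2, another protein of these loci, differed by 0.12, as did Cpsf3, the endonuclease of mRNA 3′ ends. E2f1, a transcription factor of S phase entry, was at 5.58 and 5.29 (-0.30), and the kinase gene Cdk2 was at 6.21 and 5.92 (-0.29). The subunits of the CCAAT-binding factor NF-Y were each lower, Nfya by -0.22, Nfyb by -0.23 and Nfyc by -0.22.

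Histone chaperones, which carry histones to DNA, were more often lower than higher, by small amounts. Of 22 listed 20 were measured, 13 were lower and 6 higher, none by 1.5-fold, with a median of -0.06. Of all genes 48.0% were lower, 1.98% by 1.5-fold. Nasp, a chaperone that holds soluble histones, was at 7.59 and 7.37 (-0.22). Atrx and Nap1l4 differed by -0.25 and -0.24. In the other direction Ipo4, an importin of histones, differed by 0.20, Asf1a by 0.18 and Hat1, the acetyltransferase of new H4, by 0.11.

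Genes of S phase and mitosis were mostly lower. Of 27 listed 26 were measured, 21 were lower and 5 higher, and the median was -0.26. By 1.5-fold 8 of them were lower and 0 higher. Of all genes 48.0% were lower, 1.98% by 1.5-fold, and 48.2% were higher, 1.66% by 1.5-fold. The list was split by function after the values had been seen, so the medians of its parts depend on that grouping. Ccna2 and Top2a, placed with the mitosis genes, are expressed in S phase as well. Of 19 S phase genes 14 were lower, 2 of them by 1.5-fold, with a median of -0.17. Rrm2, a ribonucleotide reductase subunit, was at 5.63 and 4.60, below background in PreASKO, and Tyms, thymidylate synthase, at 6.33 and 5.73. The sliding clamp gene Pcna was at 9.82 and 9.71 (-0.11), and the helicase genes Mcm2 and Mcm5 differed by -0.05 and 0.02. Tk1, a thymidine kinase gene, was the most positive of the list (0.18). All 7 measured mitosis genes were lower, 6 by 1.5-fold, with a median of -1.14. Mki67, the antigen Ki-67, was at 6.90 and 5.60. Top2a, the topoisomerase of dividing cells, differed by -1.14, and the cyclin genes Ccnb2 and Ccna2 by -1.16 and -1.02. The mitotic kinase gene Aurkb differed by -0.89, and Plk1, another, was at 5.37 and 3.96, below background in PreASKO. Cdk1, at -0.44, was the one short of the limit. No test of a difference between the histone genes and these lists was made.

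**Figure D4:**
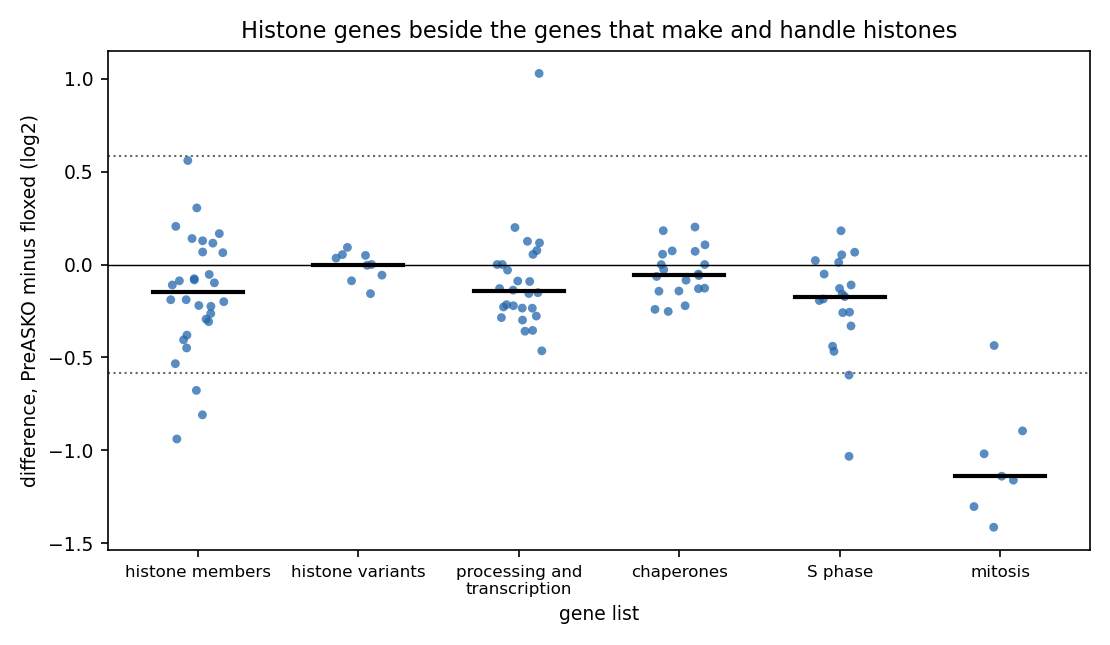
Difference PreASKO minus floxed (log2) for each gene of the histone members and of 5 comparison lists; bars are medians, points are spread sideways only to be seen, and dotted lines mark 1.5-fold. The medians run from 0 for the histone variants through -0.15 for the histone genes and -0.17 for the S phase genes to -1.14 for the mitosis genes.

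Markers of other cells differed between the arrays as well. All 12 macrophage markers were higher in PreASKO, 5 by 1.5-fold, with a median difference of 0.48 and none below background. Of all genes 48.2% were higher, 1.66% by 1.5-fold. Lymphocyte markers had a median difference of 0.13 over 10 genes, 6 of them below background on both arrays. Of the 10 genes, 2 were 1.5-fold higher, Cd3e at 4.96 and 5.84 and Il7r at 3.95 and 4.55, the latter below background on both. Endothelial markers had a median difference of -0.15 over 6 genes, and mural markers one of -0.33 over 7. In each of these lists 1 gene was 1.5-fold lower, Kdr (5.55 and 4.86) and Kcnj8 (5.98 and 5.36). Their part in the histone differences was not tested. Epithelial markers had a median difference of 0.04 over 6 genes, 5 of them below background on both arrays. The 1 measured erythroid marker, Alas2, was below background. All 4 male germ cell markers were below background on both arrays, as were the germ cell histone genes H1f6, H1f8 and H2bc1. The germ cell histone genes H2ac1 and H1f7 were above it on both.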

How the data were processed

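The authors deposited log2 values for 35556 probe sets on 2 arrays, summarised with RMA per the submitters' processing notes; the log base was read from their range (1.23 to 13.8). RMA includes a quantile step; the probe set values of the arrays still differed slightly in median (4.73 and 4.71). No test fits 1 array a group. Genes were named from the supplied platform annotation through probe sets with 1 gene (21789); 1621 probe sets named several genes and 12146 were not listed. For several probe sets of a gene, the one with the highest mean was used. Differences, counts past 1.5-fold and medians were set beside those of all genes. The histone genes and lists were chosen with earlier results of these data known. The named genes were all members (in depth those past 1.5-fold and the 3 brightest of each type) and, of the variant, processing and chaperone lists, up to 3 per direction above the level floor and any past 1.5-fold. S phase and mitosis genes were a list for counts, from which those named were chosen after their values were seen, as were the markers named; H1f4, H2ax, H3f3a, Slbp, Npat, Pcna, Mcm2, Mcm5 and the NF-Y genes were added for their function. Steps were tested on simulated data. Alternatives were the mean over probe sets, a level floor, values raised to background, centring, loess (span 0.3), quantile normalization, a 2-fold limit, other memberships and shared probe sets. The software was matplotlib 3.10.9, statsmodels 0.14.6 (loess), numpy 2.4.6 and pandas 2.3.3 on Python 3.11.15.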

Additional observations from a re-analysis of the deposited data

How the results depend on the processing

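The count of 3 histone genes 1.5-fold lower stayed at 3 with loess, quantile normalization and each change of membership. No change of membership removed a gene past the limit. The mean over probe sets and centring also gave 3 but could not change the count. Each member had 1 probe set, and the median of all genes was already 0. The count was 1 with the level floor, 1 with values raised to background and 0 at 2-fold. The count of histone genes 1.5-fold higher, 0, became 1 with quantile normalization (H3c15). It became 1 with the 17 probe sets naming several members added, and 1 with every shared probe set added, because of the dim H4 set. The median over all members stayed below 0 throughout, between -0.22 and -0.07. Without the 3 germ cell genes H1f6, H2ac1 and H2bc1 it was -0.19, and without H1f7, H1f8 and H1f10 as well, a setting chosen after seeing the data, also -0.19. With the 4 genes of older cluster names added (H2aw, H2bu2, H4f16 and the pseudogene H2bu1-ps), also chosen afterwards, it was -0.10. The H1 median moved to -0.53 with the level floor, and the H3 median to 0.0 with values raised to background; the level floor left no H3 gene and thus gave no H3 median. None of the 30 histone genes changed sign under loess or quantile normalization, and centring could not change a sign. The counts of 1.5-fold genes in the variant, processing and chaperone lists were those of the report in each of the 6 alternatives run on them. Centring could not change these counts either. No paired analysis was possible because only 1 array stands for a group, and none could be dropped as a replicate. The 2 arrays limit the precision of every value here.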
